A study of Rattus norvegicus with 4 samples.

Results

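The m6A reader proteins are the 10 rat genes Ythdf1, Ythdf2, Ythdf3, Ythdc1, Ythdc2, Igf2bp1, Igf2bp2, Igf2bp3, Hnrnpa2b1 and Hnrnpc. Members were taken by name and matched to the peak lists through their NCBI gene ID. Of the 10 genes, 8 carried at least 1 m6A peak, out of 8729 genes with a peak in either list. Of 23154 protein-coding rat genes in the RefSeq table (GRCr8) 35.5% had one, a share that also counts genes not expressed in these cells. The peaks described here lie on the transcripts of the readers themselves and do not show where the reader proteins bind.

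The assay was m6A-seq of neonatal rat cardiac fibroblasts (NRCFs), primary heart cells of healthy Sprague-Dawley rats at most 3 days old. The Vector group received the empty plasmid and carries the genotype label WT, and the FTO group received a plasmid with rat FTO cDNA, labelled as FTO overexpression. Both groups were collected 48 h after transfection. Each group had 1 library of RNA pulled down with an anti-m6A antibody (m6A-IP) and 1 input library. Transfection gives a mixed pool of cells, in which the share that took up the plasmid was not analysed here.

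A peak is a stretch of RNA richer in pulled-down fragments than in input fragments, and the authors listed each peak once per group with its length in base pairs, an Ensembl transcript and a gene ID. The Vector list held 21249 peaks and the FTO list 17796, or 1.19 Vector peaks for each FTO peak. The median length was 203 bp and 228 bp. Sequencing depth was not used here, and with 1 library pair per group no difference has a replicate check. In such bulk RNA, more methylation on a transcript, more of the transcript per cell and more cells that express it cannot be told apart from a peak list.

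The lists were set against the labelled cell type. Fibroblast marker transcripts had a peak in 5 of 10 cases, with 12 Vector and 9 FTO peaks in total, most of them on the receptor gene Pdgfra with 7 and 6. Fn1 had 3 and 1, Tcf21 1 and 1, Postn 1 and 0, and Ddr2 0 and 1. The collagen genes Col1a1, Col1a2 and Col3a1, as well as Dcn and Vim, had none. Of 6 cardiomyocyte markers 5 had a peak, with 22 Vector and 24 FTO peaks. Myh7 had 8 and 5, Myh6 7 and 7, Tnnt2 4 and 7, Ryr2 2 and 5, and Actn2 1 and 0. Only Tek among 4 endothelial markers had peaks, 0 and 2, and only Myh11 among 3 smooth muscle markers, 17 and 15. A peak is not an expression level, so these counts neither give nor deny a cell type, and their part in the results below was not tested.

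m6A is written on adenosines of mRNA by the METTL3 and METTL14 complex and removed by FTO and ALKBH5. Readers bind the mark, or RNA that the mark has unfolded, and set the fate of the transcript through decay, translation, splicing, export or stability. In many mRNAs the mark gathers near the stop codon and in long exons, and transcripts of the m6A machinery can carry it too.

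In the FTO list, peaks were fewer for 1 of the 8 readers, as many for 3 and more for 4. Over all 8729 genes the shares were 41.4% with fewer, 37.4% with as many and 21.2% with more. The median difference, FTO minus Vector, was 0.5 peaks for the 8 readers and 0 for all genes. The readers together had 22 Vector peaks and 25 FTO peaks, while FTO minus Vector was -3453 peaks over the whole lists. The differences per reader were 1 peak at most, in either direction. The share of all genes with differences this small was not computed, so this does not set the readers apart. Counting no peak shorter than 100 bp, 0 readers had fewer, 6 had as many and 2 had more, so most of these differences lay in peaks below that length. All genes gave 38.5%, 40.6% and 21.0% under the same minimum. With FTO numbers scaled up by 1.19, the Vector to FTO ratio of list size, and differences under 1 peak taken as level, 0 had fewer, 4 as many and 4 more, beside 26.0%, 50.8% and 23.2% of all genes.

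Summed over its peaks, the listed length was lower in the FTO list for 1 reader, equal for 2 and higher for 5. The shares over all genes were 47.2% lower, 21.0% equal and 31.8% higher. All readers together covered 10040 bp of Vector peaks and 10778 bp of FTO peaks, a difference of 738 bp, while over the whole lists FTO minus Vector was -719552 bp. The YTH genes gave 7546 bp and 7616 bp, and the IGF2BP genes 2494 bp and 3039 bp. Over all peaks, most of the added length therefore came from the IGF2BP family. The YTH sums were nearly level, with differences of 160 bp for YTHDF and -90 bp for YTHDC. With the longest peak of each gene only, the difference was 238 bp. Of this, Igf2bp1 gave 115 bp and Hnrnpa2b1 123 bp.

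The lists were matched peak by peak without positions, a Vector peak and an FTO peak forming a pair where gene and length were identical, with each peak used once. Of the 22 Vector peaks of the readers, 18 had an FTO partner, which is 81.8% (95% Wilson interval 61.5% to 92.7%), beside 57.3% of all Vector peaks. The same 18 pairs were 72.0% of the 25 FTO peaks of the readers (52.4% to 85.7%), beside 68.4% of all FTO peaks. These intervals cover counting error only, and peaks of the same gene are not independent. Ythdc1 alone gave 8 of the 18 pairs, so these shares are a description and set nothing apart. An equal length says nothing of the signal inside a peak.

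The reader families differed in this pairing. In the YTH genes 15 of 16 Vector peaks (93.8%, interval 71.7% to 98.9%) and 15 of 17 FTO peaks (88.2%, 65.7% to 96.7%) had a partner. In the IGF2BP genes it was 3 of 6 Vector peaks (50.0%, 18.8% to 81.2%) and 3 of 7 FTO peaks (42.9%, 15.8% to 75.0%). The intervals of the families overlap, and the difference rests on few peaks.

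Sorted by pairing, the 8 readers fell into 5 patterns. Ythdf3 and Ythdc2 had the same lengths in both lists, as had 21.0% of all genes. Ythdf1 and Ythdf2 kept every Vector length and had an FTO peak besides, a pattern of 7.11% of all genes. Ythdc1 had every FTO length in the Vector list and a Vector peak besides, as 14.9% of all genes did. Igf2bp1 and Igf2bp2 had peaks without a partner in both lists, like 31.0% of all genes. Hnrnpa2b1 had a peak in the FTO list only, as did 9.57% of all genes, and 0 readers had peaks in the Vector list only, where 16.4% of all genes stood.

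**Figure D1:**
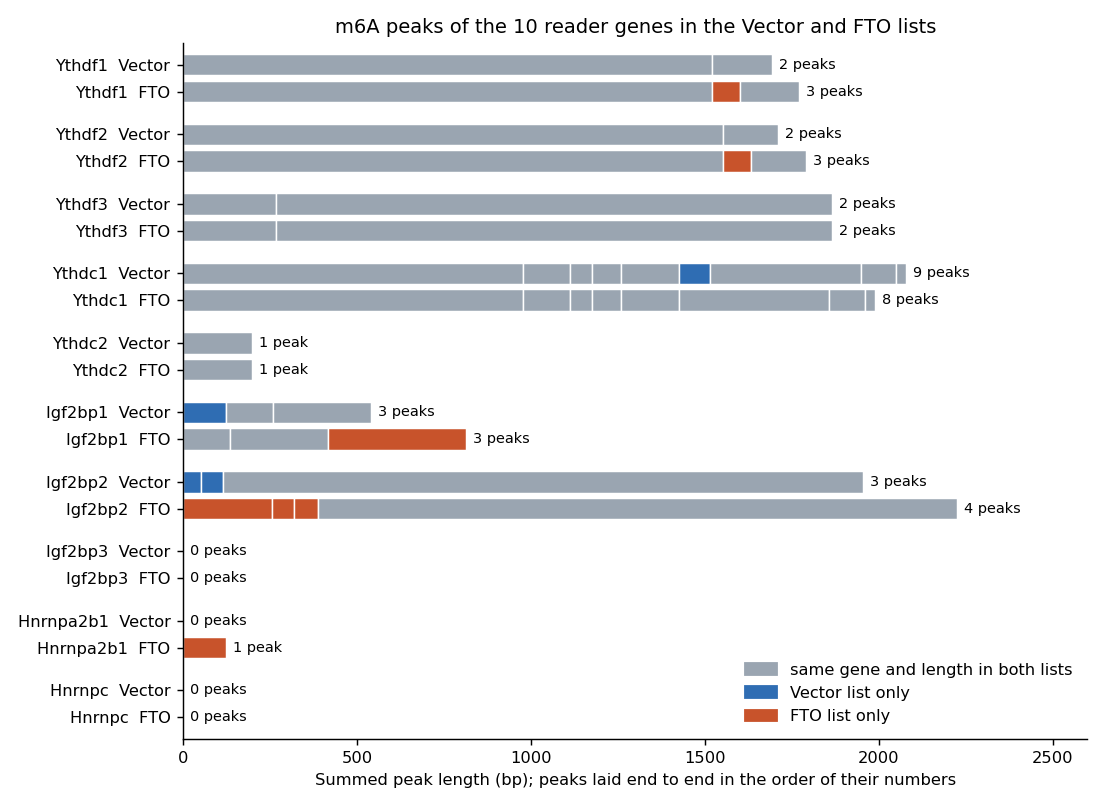
Listed m6A peaks of the 10 reader genes in the Vector list (upper bar of each gene) and the FTO list (lower bar), with each box a peak drawn to scale in bp and boxes laid end to end in the order of the peak numbers. Distances between peaks are not drawn. Grey boxes have the same gene and length in both lists, and the coloured boxes, 4 Vector peaks in blue and 7 FTO peaks in orange, do not.

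The YTHDF proteins are cytoplasmic readers that recognise m6A through the YTH domain. Ythdf1, best known for promoting translation of marked mRNAs, had 2 Vector peaks of 1521 bp and 171 bp. The FTO list gave it 3 peaks, of 1521 bp, 80 bp and 171 bp. Both Vector peaks thus recurred at their exact length, and the only addition was a short peak listed between them.

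Ythdf2, which recruits the CCR4-NOT deadenylase to marked mRNAs and speeds their decay, showed the same layout. Its Vector peaks were 1553 bp and 158 bp long, and its FTO peaks 1553 bp, 80 bp and 158 bp. The summed length went from 1711 bp to 1791 bp, as that of Ythdf1 went from 1692 bp to 1772 bp. The rise of 80 bp was the same for these paralogs because the added peak had the same length in each. Peaks of exactly 80 bp numbered 43 for Vector and 36 for FTO, and 5.38% of all FTO peaks were shorter. Those of exactly 90 bp numbered 81 and 56, so a low count for an exact length does not set 80 bp apart. What fixes the listed lengths was not analysed here.

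Peaks are numbered within each list, and the numbers mostly follow the genome, with 5.02% of neighbouring Vector gene pairs and 5.03% of FTO ones out of chromosomal order. The lists leave numbers out, however, and hold 35.7% of the Vector numbers and 34.2% of the FTO numbers. For Ythdf1 and for Ythdf2, exactly 1 Vector number was missing between the long and the short peak, at the place where the FTO list has the 80 bp peak. A single missing number inside a gene was frequent, in 19.5% of the Vector genes with 2 or more peaks. What a missing number stood for is not given in the sources used here, so it is unknown whether a Vector peak was called there and left out of the list.

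Ythdf3, a partner of YTHDF1 in translation and of YTHDF2 in decay, had 2 Vector peaks of 267 bp and 1599 bp. The FTO list held the same 2 lengths in the same order. No number was missing between them in either list. Of all genes with 2 Vector peaks, 1738 in number, 46.5% had fewer FTO peaks, 40.3% as many and 13.2% more. Among the YTHDF genes, 1 was in the group with as many and 2 in the group with more.

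A peak of over 1500 bp was common to the 3 YTHDF transcripts. Peaks of at least 1500 bp made up 8.12% of all Vector peaks and 9.45% of all FTO peaks. These are shares of peaks. The share of genes with such a peak was not computed and can be higher, at a mean of 2.69 Vector and 2.44 FTO peaks per gene. The 1521 bp peak of Ythdf1 was longer than 92.2% of Vector peaks, the 1553 bp peak of Ythdf2 longer than 92.4% and the 1599 bp peak of Ythdf3 longer than 92.8%. The 3 paralogs thus shared a layout of a very long peak and a shorter one on a single listed transcript each, and the long peak had the same length in both groups.

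The YTHDC proteins carry the same domain in other settings. Ythdc1 encodes the nuclear reader, which acts on splicing and on export of marked mRNAs, and had the most peaks of the 10 genes. Its 9 Vector peaks measured, in listed order, 976, 135, 64, 83, 167, 90, 433, 102 and 28 bp. The 8 FTO peaks measured 976, 135, 64, 83, 167, 433, 102 and 28 bp. The lists differed by the peak of 90 bp alone, and the order of the others was the same.

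In the FTO list the numbers of the 167 bp and 433 bp peaks followed each other directly, so neither a listed nor an unlisted FTO peak was numbered between them. The Vector list had 1 missing number there beside the 90 bp peak. Summed length went from 2078 bp to 1988 bp. Only 9.32% of Vector peaks were shorter than 90 bp. The last peak of Ythdc1, 28 bp, was among the shortest of all, with 0.254% of Vector peaks and 0.174% of FTO peaks below it.

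A gene with so many peaks was unusual. In the Vector list 263 genes, or 3.33%, had 9 peaks or more, and in the FTO list 169 genes, or 2.32%. Of the 69 genes with exactly 9 Vector peaks, 72.5% had fewer FTO peaks, 14.5% as many and 13.0% more. With 1 peak fewer, Ythdc1 stood in the most frequent direction for its peak number, and after scaling by the list sizes its difference was under 1 peak. With peaks of at least 100 bp it had 5 peaks in each list, and at 200 bp and above 2 in each.

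The numbers 9 and 8 were shared by 16 other genes. By summed length, those closest to Ythdc1 were Emsy and Sfswap. Emsy covered 2267 bp and 1989 bp, a distance of 0.13 in summed absolute log2 ratios over the 2 lists, and Sfswap covered 1980 bp and 1836 bp, a distance of 0.18. Likeness here is of peak numbers and lengths only.

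Ythdc2, a helicase and reader known for its role in meiosis of germ cells, had 1 Vector peak of 199 bp and 1 FTO peak of 199 bp. It was the only reader with a single peak in each. Of all 3341 genes with 1 Vector peak, 56.1% had as many FTO peaks, 31.5% fewer and 12.5% more. The peak lay near the middle of the length range, longer than 48.9% of Vector peaks and 44.0% of FTO peaks.

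The IGF2BP proteins bind marked mRNAs through KH domains and are known for stabilising them. Igf2bp1, active mainly in fetal tissue and tumours, had 3 Vector peaks of 123, 135 and 282 bp and 3 FTO peaks of 135, 282 and 397 bp. Its peak number was thus level while its peaks were not the same. At 200 bp and above it had 1 Vector peak and 2 FTO peaks. The pair of 135 bp and 282 bp was common to both lists, the Vector list had a further peak at the lower-numbered end and the FTO list a further peak at the higher-numbered end.

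The summed length of Igf2bp1 went from 540 bp to 814 bp, and its longest peak from 282 bp to 397 bp. Among the 7 readers with peaks in both lists, only Igf2bp1 had a longest peak of unlike length in the lists. The 282 bp peak recurred, and the 397 bp peak was a further FTO peak without a partner. The share of all genes with an unlike longest peak was not computed. In the FTO list 1 number was missing between the 282 bp and 397 bp peaks, and in the Vector list the number just after the 282 bp peak was among 9 missing numbers before the next listed gene.

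Igf2bp2 is the family member that stays active in adult tissues. Its 3 Vector peaks measured 52, 64 and 1838 bp and its 4 FTO peaks 257, 61, 69 and 1838 bp. The long peak recurred at the same length, and none of the others did. The FTO peak of 257 bp accounts for the difference in number also at minimum lengths of 100 bp and 200 bp, where the gene had 1 Vector peak and 2 FTO peaks. The recurring peak of 1838 bp was the longest of any reader, longer than 94.6% of Vector peaks and 93.7% of FTO peaks. Allowing lengths to differ by 10% paired the 64 bp Vector peak with an FTO peak, and the 52 bp and 257 bp peaks stayed without a partner.

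Igf2bp2 also had the widest gaps in its numbers. Between its peaks the Vector list left out 14 numbers and the FTO list 11. Among all genes with 2 or more peaks, 39.6% of the Vector genes and 44.5% of the FTO genes had no missing number inside. At least 14 were missing inside 1.67% of the Vector genes, and at least 11 inside 1.73% of the FTO genes. The listed peaks of Igf2bp2 were therefore the smaller part of the numbers in its stretch.

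The summed length of Igf2bp2 was 1954 bp for Vector and 2225 bp for FTO, and 257 bp of the FTO sum lay in 1 peak. Of all 964 genes with 3 Vector peaks, 56.7% had fewer FTO peaks, 29.7% as many, like Igf2bp1, and 13.6% more, like Igf2bp2. The numbers 3 and 4 were shared with Igf2bp2 by 94 other genes. The closest in summed length were Narf, with 2004 bp and 2147 bp at a distance of 0.09, and Smg5, with 2137 bp and 2236 bp at 0.14.

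Igf2bp3, the other fetal member of the family, had 0 peaks in each list. In the chromosomal order of the RefSeq table (GRCr8, used for names and order only), the nearest protein-coding genes with Vector peaks were Zfp775 and Ccdc126. Between their peaks the Vector list had 0 listed peaks and 12 missing numbers. In the FTO list the nearest were Gpnmb and Ccdc126, with 0 listed peaks and 6 missing numbers between them. No peak without a gene ID stood in these stretches either, so Igf2bp3 had no listed peak under another name there, and missing numbers could not be assigned to a gene.

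The hnRNP members bind RNA whose structure the mark loosens and act in splicing and RNA processing. Hnrnpa2b1, also described in microRNA processing, had 0 Vector peaks and 1 FTO peak of 123 bp. Of all genes with peaks in the FTO list only, 835 in number, 84.7% had a single FTO peak. The peak was short, with 18.7% of FTO peaks below it, and at a minimum of 200 bp the gene had 0 peaks in each list. Its number came directly before that of Cbx3, the neighbouring gene, and in the Vector list the number directly before Cbx3 was among 17 missing ones. Hnrnpa2b1 therefore had the peak count most frequent among genes listed for FTO alone.

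Hnrnpc, whose protein binds uridine stretches that the mark makes accessible, had 0 peaks in both lists. Its nearest genes with peaks were Tmem253 and Supt16h in each list. The numbers of these genes left 2 missing ones between them for Vector and 0 for FTO. If the numbers follow the genome here, the FTO numbering leaves no place for a peak between these neighbours, listed or not. The Vector numbering leaves 2.

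The order of the numbers also gave the place of the longest peak, where the strand of the gene was known from the RefSeq promoter table (GRCr8). In all 4 readers with a strand and at least 2 peaks, Ythdf1, Ythdf2, Ythdc1 and Igf2bp2, the longest peak was the one nearest the 3′ end of the gene, in both lists. Over all genes with a strand, at least 2 peaks and a single longest peak, the longest was the 3′-most in 54.7% of 3609 Vector genes and 57.1% of 3073 FTO genes. It was the 5′-most in 28.9% and 27.1%. The place relative to the stop codon was not analysed here.

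The 7 readers with peaks in both lists each had all of them on 1 Ensembl transcript, the same for Vector and FTO. This was so for 85.5% of the 6462 genes with peaks in both lists, so it does not set the readers apart. With transcripts in place of genes, the pairing could therefore only give the same 18 pairs.

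Related genes were counted in the same way to set the readers in their pathway. Of 72 such genes 49 had a peak, and 14 of these had fewer peaks in the FTO list, 21 as many and 14 more. With all peaks counted, their balance of fewer and more was even, where among all genes 41.4% had fewer and 21.2% more. This balance was not recomputed at the minimum lengths, which moved single lists in both directions. More minus fewer went from 1 to -2 for the writers at 100 bp. For the splicing and export partners of YTHDC1 it went from -1 to 2 at 200 bp. The even balance therefore holds for 1 setting only.

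FTO itself, the transfected demethylase, had 3 Vector peaks and 9 FTO peaks on its transcript, and the lists do not separate the plasmid transcript from the endogenous one. No other related gene differed by as much. Among 11 writers of the mark 8 had peaks, with 1 fewer, 5 as many and 2 more, and 34 Vector and 35 FTO peaks in total. With peaks of at least 100 bp the writers turned to 3 fewer and 1 more, and at 200 bp and above they had 0 fewer and 1 more. Zc3h13, a scaffold of the writer complex, had the most, 13 and 12. Like Ythdc1 it was a gene of many peaks that differed by 1.

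Of 12 other proteins described as m6A readers or m6A-sensitive binders, 9 had peaks, with 4 fewer, 2 as many and 3 more. Rbmx, an hnRNP-like splicing factor, had 3 Vector peaks and 0 FTO peaks. Fxr1, a paralog of the fragile X protein, had 1 and 3, and the translation factor subunit Eif3a, with the most Vector peaks, had 11 and 10. Differences of 2 or 3 peaks thus occurred in this list, while none of the 10 readers reached 2. How frequent such differences were over all genes was not computed. With peaks of at least 100 bp the list had 3 fewer and 3 more, and at 200 bp and above 1 of each.

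The decay partners of YTHDF2 and YTHDC2 had peaks in 9 of 15 genes, with 2 fewer, 4 as many and 3 more. Cnot3, a CCR4-NOT subunit, had 4 and 6. This list had 3 fewer and 3 more at a minimum of 100 bp, and 1 fewer and 3 more at 200 bp. Splicing and export partners of YTHDC1 had peaks in 3 of 6 genes, with 2 fewer and 1 more, which turned to 1 of each at a minimum of 100 bp and to 0 fewer and 2 more at 200 bp. Safb, a nuclear scaffold protein among them, had 7 and 6. Of 3 IGF2BP cofactors, Matr3 had 1 and 0 peaks, the poly(A)-binding Pabpc1 1 and 1, and the remaining gene none. The partner lists of the 3 reader families were therefore small in peaks, with genes of fewer and of more FTO peaks among them.

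Of 23 other hnRNP genes 15 had peaks, 47 Vector and 46 FTO peaks in all, with 3 fewer, 8 as many and 4 more. Hnrnpm, a splicing regulator, had the most and differed most, with 10 and 7. The absence of listed peaks on Hnrnpc was shared by 8 of these 23 genes. At a minimum of 100 bp this hnRNP list had 3 fewer and 3 more, and at 200 bp 1 fewer and 2 more. Eprs1, the glutamyl-prolyl-tRNA synthetase gene, had 3 Vector peaks and 1 FTO peak, and 1 in each at a minimum of 200 bp.

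**Figure D2:**
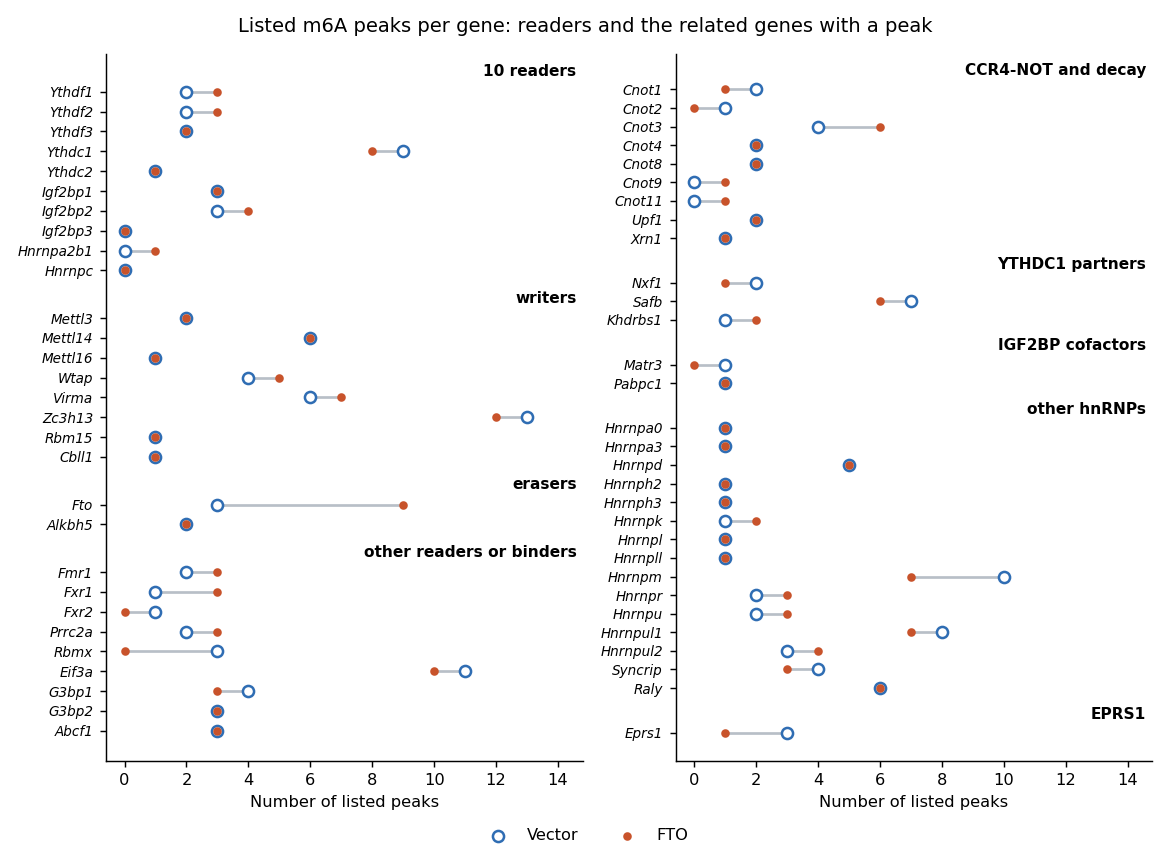
Number of listed m6A peaks per gene in the Vector list (open blue circles) and the FTO list (filled orange dots) for the 10 readers and the 49 related genes with a peak in either list, a line joining the values of a gene. Filled dots inside open circles are equal numbers. The readers differed by 1 peak at most, for which no share over all genes was computed. The longest line is that of Fto, from 3 to 9.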

How the data were processed

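m6A-IP and input libraries of the Vector and FTO groups, 1 of each per group, were mapped to their groups from the labels. The submitters' processing notes name cutadapt 1.9.3, HISAT2 2.0.4 and the rn6 build, and the peak names begin with MACS. The caller's settings and threshold and the annotation release are not given in the sources used here. The deposited value of each peak is its length in bp, made by the authors and not normalized. Library totals were not used, so the effect of depth on peak numbers was not removed.

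Peaks were assigned to genes by NCBI gene ID, or by transcript where the ID was missing (248 Vector and 213 FTO peaks). Symbols came from RefSeq (GRCr8), which matched 7489 of 7723 and 6920 of 7145 gene IDs. Computed here were peak numbers, summed lengths, pairs of equal gene and length, Wilson intervals at 95% and counts over all genes. Python 3.11.15, pandas 2.3.3, scipy 1.17.1 and matplotlib 3.10.9 were used. The pairing code was run on simulated lists in which peaks not in common were given lengths that matched none. Accidental pairs could not occur there, so whether equal lengths mark the same peak was not tested. Positions were not used, so pairing by length took the place of overlap. No p-value was computed.

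Named genes were all readers. In each related list they were genes differing by 2 peaks or more, at most the 3 largest differences, and the gene with the most Vector peaks. For readers with at least 4 peaks in a group, the 2 genes of equal peak numbers and closest summed lengths were named. Neighbouring genes were named by their place and marker genes as examples of their list after the values were seen. The members and lists were chosen with earlier results of these data known. Alternatives were minimum lengths of 100 and 200 bp, equal lengths of a gene counted once, scaling by list size, lengths within 10%, pairing by transcript or by any peak of the gene, and the longest peak only. The place of the longest peak was analysed only after the data were seen, as was its minimum of 100 bp.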

Additional observations from a re-analysis of the deposited data

How the results depend on the processing

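Of 109 values recomputed under the alternatives, 67 were the same, 40 moved and 2 reversed. A count or a balance of counts was taken as the same within 1.5 times, a share within its 95% interval, and a length in bp or the difference of a single reader only where it was equal. Of the 80 that concern single readers, single lists or the place of the longest peak, 28 moved and 2 reversed. The balance of genes with more minus fewer FTO peaks went from 1 to -2 for the writers at a minimum of 100 bp and from -1 to 2 for the YTHDC1 partners at 200 bp. The minimum lengths, which were run on the most results, moved 15 of 43 values at 100 bp and 22 of 41 at 200 bp. With peaks of at least 100 bp, 0 readers had fewer FTO peaks, 6 as many and 2 more, the summed difference was 654 bp and 93.8% of Vector peaks had a partner. At 200 bp and above, 0 had fewer and 2 had more, the summed difference was 654 bp and the share was 100%, on 8 Vector peaks. Over all genes the shares with fewer, as many and more were 38.5%, 40.6% and 21.0% at the lower minimum and 27.5%, 53.8% and 18.6% at the higher. Scaling the FTO numbers by the list sizes left 0 readers with fewer. Taking the longest peak of each gene alone gave a summed difference of 238 bp. Pairing with whichever peak the gene had gave 95.5% of Vector peaks. For the minimum lengths and these last 3, the cause was not tested. Counting equal lengths once and pairing by transcript could change no value of the readers. No reader had peaks of equal length within a list, and each reader with peaks had all of them on 1 transcript. The 14 values of the former and 2 of the latter, all among the 67 that were the same, are therefore no check.

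No paired analysis was possible because there is a single list for each group and no test was made. With a single library pair in each group, no replicate was left out. Depth was not used, which limits the reading of peak numbers, and a missing peak is a peak not listed, not an absence of m6A.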
